A study of Mus musculus with 18 samples.

Results

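Gm47551 (ENSMUSG00000114458.1) is a spliced long noncoding transcript that GENCODE M21 annotates as antisense to Fcho2, a gene for a membrane-bending protein of clathrin-mediated endocytosis. It is 1 of the 13218 loci in a deposited table of levels in FPKM (fragments for each kilobase of transcript and each M of fragments, where M is mega; a level per length) from germ cells of the mouse testis, and it stands on a single row. It was selected on its very high FPKM in priSG-B, so its level there is given as a description with no test. The cells came from testes of ICR mice by STA-PUT, a sedimentation method that sorts cells mainly by size. They are labelled priSG-A at postnatal day 6 and priSG-B at day 9, plpSC at day 14 and pacSC at day 21, and rST at day 35 and elST at day 56. Each of the 6 types has 3 libraries, and no genotype or treatment is named. The abbreviations are not explained; SG is commonly used for spermatogonia, the dividing stem and progenitor cells, SC for spermatocytes, the cells in meiosis, and ST for the spermatids that follow.

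Antisense transcripts are read from the strand opposite to another gene. Some regulate that gene, and many have no known role; none is claimed here for Gm47551. Repeats of the B2 family are short interspersed elements of rodents, present in a very large number of copies. RNA polymerase III transcribes them from an internal promoter made of an A box and a B box, and copies also lie within the introns and exons of ordinary genes, in either direction. A sequencing read from one copy can resemble many others, so a locus made largely of such a repeat is hard to count by itself.

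On mm10 the gene lies on the plus strand at chr13:98801172-98803736. Exon 1 spans 39 bases (chr13:98801172-98801210) and exon 2 spans 126 bases (chr13:98803611-98803736), with an intron of 2400 bases between them and a spliced length of 165 nt in the only annotated transcript. Both exons fall inside 1 intron of Fcho2, which is 9730 bases long (chr13:98796368-98806097) and is read from the minus strand. They overlap 0 Fcho2 exons, and the end of Gm47551 lies 11713 bases from the Fcho2 start site. Exon 1 also lies wholly within D130062J10Rik, a single-exon transcript of 2800 bases on the minus strand (chr13:98798611-98801410). Since the library kit does not record strand, strand cannot separate reads of D130062J10Rik from reads of exon 1. Nor can it separate reads of unspliced Fcho2 RNA from reads of either exon.

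**Figure D1:**
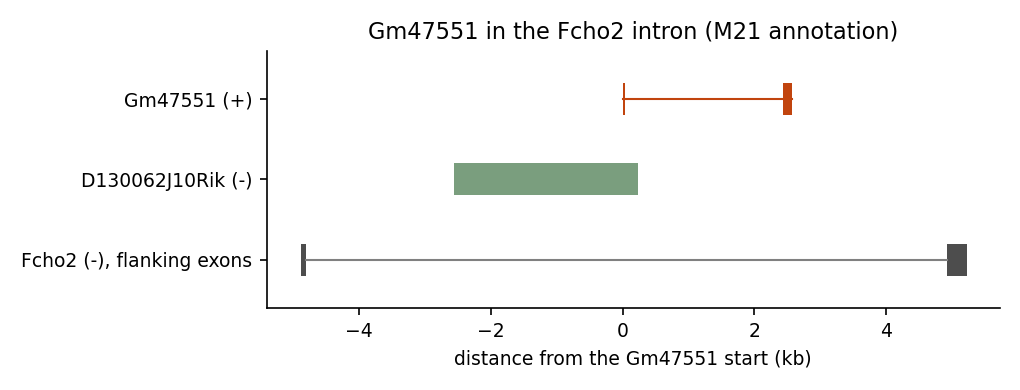
Gm47551, D130062J10Rik and the Fcho2 exons that flank them, drawn to scale as the distance in kb from the Gm47551 start, with strand in parentheses. Boxes are exons and lines are introns: both exons of Gm47551 sit within the Fcho2 intron, and exon 1 sits within D130062J10Rik.

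The transcript and its nearest relatives are shown because nearly all of Gm47551 is repeat sequence that other loci also hold. The first line is the GENCODE M21 (GRCm38, the assembly of mm10) transcript, with exon 1 in capitals and exon 2 in lower case. The others are the stretch of genome that begins at exon 1 (chr13:98801172-98801338, plus strand, read from the M21 sequence of D130062J10Rik) and the copies inside Gm48610, Gm45184 and Gm43461, which are among the loci whose levels followed Gm47551 most closely. All are written in the direction of Gm47551, and in them capitals mark bases that the alignment pairs with a different base or with none.
Gm47551: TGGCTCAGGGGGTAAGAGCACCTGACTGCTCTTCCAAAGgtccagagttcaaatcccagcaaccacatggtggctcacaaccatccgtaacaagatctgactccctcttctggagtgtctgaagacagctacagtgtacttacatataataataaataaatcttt
Genome from exon 1 onward: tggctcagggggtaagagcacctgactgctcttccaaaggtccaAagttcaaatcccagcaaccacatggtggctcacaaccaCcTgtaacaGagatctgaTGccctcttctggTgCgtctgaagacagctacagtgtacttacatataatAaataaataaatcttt
Gm48610 copy: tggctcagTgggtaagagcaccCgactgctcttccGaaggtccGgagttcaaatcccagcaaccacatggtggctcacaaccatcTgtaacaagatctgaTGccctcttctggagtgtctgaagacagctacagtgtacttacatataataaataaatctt
Gm45184 copy: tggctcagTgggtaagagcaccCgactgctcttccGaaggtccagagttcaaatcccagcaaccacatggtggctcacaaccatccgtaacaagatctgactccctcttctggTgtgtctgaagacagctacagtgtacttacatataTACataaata
Gm43461 copy: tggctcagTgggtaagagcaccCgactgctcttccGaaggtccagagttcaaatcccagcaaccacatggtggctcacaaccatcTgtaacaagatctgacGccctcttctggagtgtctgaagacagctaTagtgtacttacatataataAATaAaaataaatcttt
The 3 copies were 93.9%, 95.6% and 94.0% identical to Gm47551. Gm48610 is annotated at chr12:4572401-4576756, Gm45184 at chr7:127434422-127439392 and Gm43461 at chr5:147427738-147428733. The sequence is recognisable as a B2 repeat, which is background knowledge; no repeat annotation was used.

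The annotated intron of Gm47551 begins in the middle of such a copy. The genome directly after exon 1 starts with GT, the usual first bases of an intron, and goes on as a repeat that matched exon 2 at 93.0% identity over 128 aligned bases, with 7 mismatches and 2 gaps. Exon 1 and the bases after it therefore form a full unspliced copy, 94.6% identical to the spliced transcript, at chr13:98801172-98801338. Reads from the spliced transcript and from the unspliced copy differ at 7 mismatched bases and 2 gaps.

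The 165 bases, 44.8% of them G or C, were searched for 3 motifs on both strands. The A box consensus was found at base 1 on the transcript's own strand, and the B box core, spelled GTTCNANNC, at base 47. AATAAA, the polyadenylation signal, was found at bases 151 and 155, overlapping itself, and none of the 3 was found on the other strand. Among the last 165 bases of 13101 other loci of the table, the A box was in 10.95% on the same strand and 23.0% on either strand, the B box core in 4.34% and 8.38%, and AATAAA in 34.6% and 41.4%. The motifs overlap the repeat itself and no factor was measured.

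Several libraries stood apart, and 3 facts about them bear on the levels. Inferred from the steps between low FPKM values, 6 libraries (all of priSG-B, the first and second of pacSC and the third of elST) had long fragments (234 to 268 bp) and 65.1 to 92.1 M fragments, against 198 to 214 bp and 31.7 to 56.7 M in the other 12. The labels give no reason for this split. AY036118 and Gm42418, loci known to collect ribosomal RNA reads, were at 7.25 to 36.2 and 28.4 to 256 FPKM in the long-fragment libraries, against 1998 to 13911 and 177 to 1027 FPKM in the others. Replicate 3 of priSG-A, plpSC and pacSC and replicate 1 of rST and elST also differed from the other libraries of their type; for example 1591 loci reached 1 FPKM in rST replicate 1, against 2491 and 2492 in rST replicates 2 and 3. None of 29 coding markers of germ, somatic or blood cells is among the loci of the table. The 1 noncoding locus listed as a stand-in for spermatids, 1700027A15Rik, went against some labels: it had 0, 4539 and 3175 FPKM in the libraries labelled rST and 0.570, 875 and 73.0 in those labelled elST, but also 0, 0 and 874 in plpSC and 75.8, 84.9 and 1195 in pacSC. Replicate 1 of rST and of elST thus held none or almost none. Replicate 3 of plpSC and all 3 pacSC libraries lay within the 73.0 to 4539 FPKM of the other libraries labelled rST or elST. In pacSC, replicate 3 was far above replicates 1 and 2, which were near the low end of that range. It had at most 11.8 FPKM in priSG-A and 0.0708 in priSG-B. The replicates named above as differing from their type enter the comparisons under their labels, and results without them are given there. In bulk RNA, fewer cells of a type and less RNA per cell cannot be told apart.

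Gm47551 had the highest FPKM of the table in every priSG-B library, at 11595, 7654 and 11389.7 FPKM. Those values were 32.0%, 24.0% and 31.5% of all the FPKM summed over the table. In so short a transcript a fragment has a high worth in FPKM, as set out below. These are therefore not ranks or shares of fragments. In priSG-A it had 51.1, 256 and 44.1 FPKM, and in plpSC 12.6, 171 and 0 FPKM. In pacSC it had 1353, 2151 and 25.5 FPKM. In rST it had 74.3, 0 and 38.0 FPKM, and in elST 108, 0 and 1031 FPKM. The 3 priSG-B libraries lay above all 15 others, and the lowest of them was 3.56 times the highest other library, pacSC replicate 2. The 3 highest libraries outside priSG-B were the 3 others with long fragments, in 2 different cell types, and 3 libraries listed the gene at 0.

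The mean was 10213 ± 2219 FPKM in priSG-B, 1177 ± 1074 in pacSC, 379 ± 567 in elST, 117 ± 120 in priSG-A, 61.1 ± 95.1 in plpSC and 37.4 ± 37.1 in rST (SD, n = 3 each). The priSG-B mean was 87.2 times that of priSG-A, 167 times that of plpSC, 8.68 times that of pacSC, 273 times that of rST and 26.9 times that of elST. In that order of means, the libraries of each type below priSG-B overlapped those of the next. Every priSG-B library had long fragments and every priSG-A, plpSC and rST library had short ones, so for these 3 types cell type and fragment length cannot be told apart. Among the long-fragment libraries alone, priSG-B had 7654 to 11595 FPKM, against 1353 and 2151 FPKM in pacSC and 1031 FPKM in elST. Among the short-fragment libraries of the other types, all values lay between 0 and 256 FPKM.

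**Figure D2:**
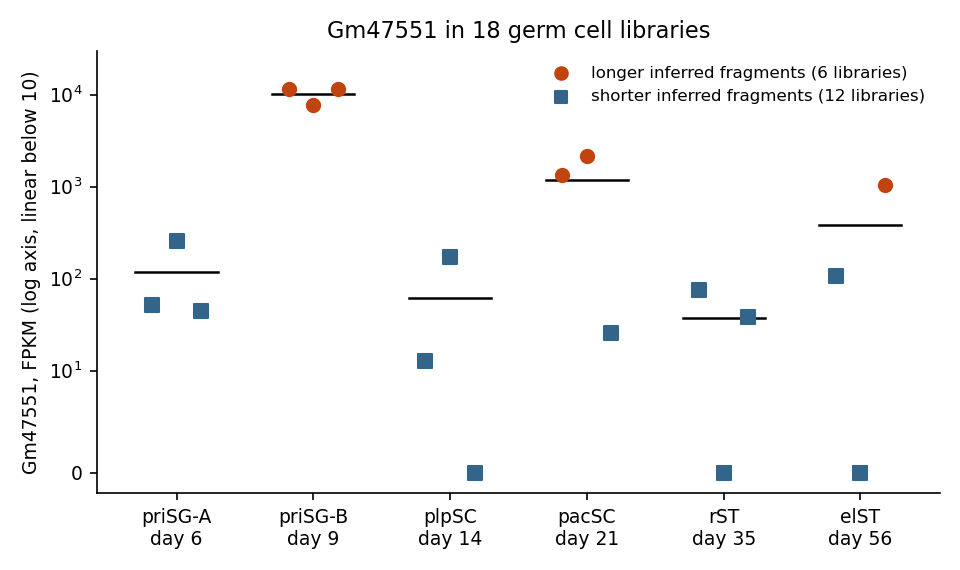
Gm47551 in FPKM (log axis, linear below 10) in each library, by cell type in order of age, with bars at the mean of 3 libraries. Circles are the 6 libraries with long inferred fragments and squares the other 12; the priSG-B libraries are highest, and pacSC replicates 1 and 2 and elST replicate 3 follow.

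Gm47551 is one of the shortest loci of the table: 73 loci, 0.553% of those matched to M21, are no longer, and 12 loci of at most 165 nt were among the 4117 that reached 1 FPKM in at least 3 libraries. In a short transcript few positions can hold a whole fragment, and an FPKM that is scaled to those positions gives each fragment a high worth. The inferred mean fragment, 198 to 268 bp over the 18 libraries, was longer than the 165 nt of Gm47551 in every one. Only fragments shorter than the mean could fit whole. The values of 7 loci that are 164 nt long were whole multiples of a common step, which stands for 1 fragment or a few and so gives an upper limit of that worth. It was 39.3 to 94.8 FPKM in the 6 long-fragment libraries, against 5.61 to 8.28 FPKM in the 6 short-fragment libraries where a step could be read.

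Gm47551 was therefore also set against Gm43940 (chr6:139830387-139830551), a single-exon locus that is also 165 nt long, so that the worth of a fragment cancels in the ratio. Gm43940 had 274, 579 and 396 FPKM in priSG-B. Of the other long-fragment libraries, pacSC replicates 1 and 2 had 1353 and 633 FPKM and elST replicate 3 had 1767 FPKM, while no short-fragment library exceeded 121 FPKM. Gm43940 was therefore also high in the long-fragment libraries, but not highest in priSG-B. Gm47551 stood at 42.2, 13.2 and 28.8 times Gm43940 in priSG-B. The ratio was 0.6, 4.25 and 0.364 in priSG-A, 0.125, 1.57 and 0 in plpSC, and 1, 3.4 and 2 in pacSC. It was 0.955 in rST replicate 1 and 7.25, 0 and 0.583 in elST; rST replicates 2 and 3 list Gm43940 at 0. Among the libraries with a ratio the 3 priSG-B libraries were again the highest, and the lowest of them was 1.82 times the highest other, elST replicate 1. This leaves out rST replicate 3, where Gm47551 was at 38.0 FPKM and no ratio could be formed. The fewest whole Gm43940 fragments that give the ratio were 14 in priSG-B replicate 2 and 4 in elST replicate 1, so it may rest on few fragments.

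The fewest whole fragments that give this ratio within rounding, together with the step, set a lower bound on the fragments behind each value, if fragments were counted whole. The bound was 338, 185 and 863 fragments in priSG-B. In priSG-A it was 3, 51 and 8 fragments, in replicates 1 and 2 of plpSC 1 and 80, and in pacSC 23, 51 and 2. It was 21 in rST replicate 1, and 29 and 14 in elST replicates 1 and 3. Per M of inferred fragments the bounds came to 4.66, 2.01 and 10.2 in priSG-B, against at most 1.69 in any other library, plpSC replicate 2. Since each is only a lower bound, no ratio between libraries follows from them.

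**Figure D3:**
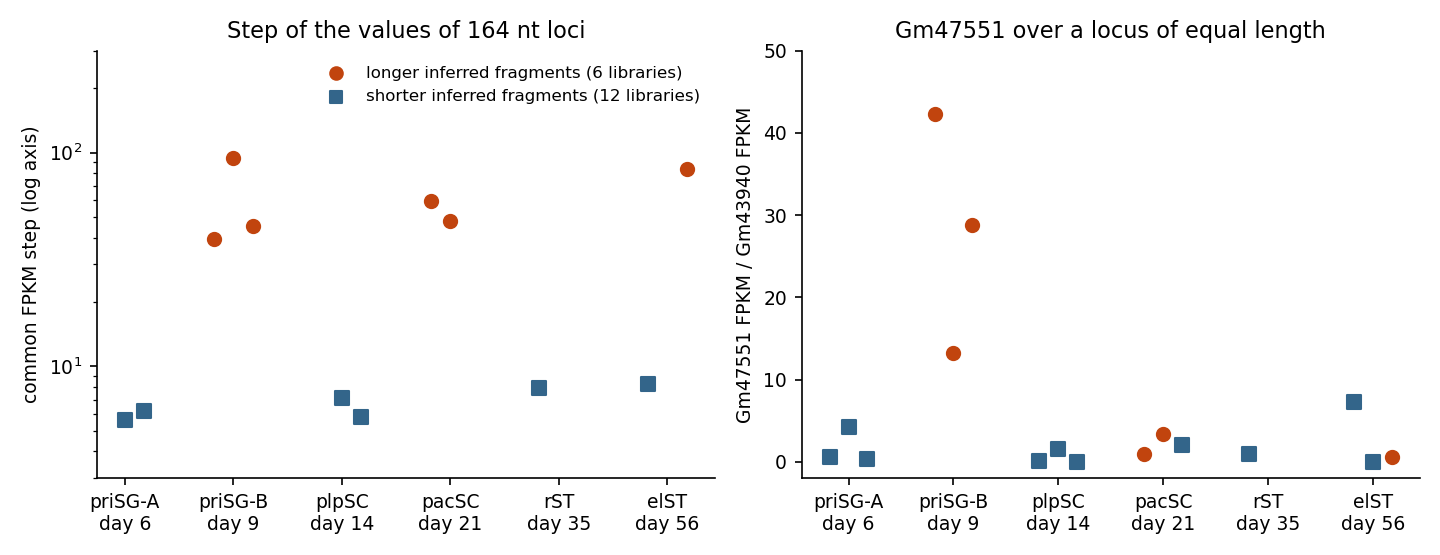
Left, common step of the FPKM values of loci of 164 nt (log axis), an upper limit of the worth of 1 fragment, in the 12 libraries with a readable step; right, FPKM of Gm47551 divided by that of Gm43940, a locus of equal length, in 16 libraries. The step was 39.3 to 94.8 FPKM in long-fragment libraries (circles) and 5.61 to 8.28 in short-fragment ones (squares), and the ratio was 13.2 to 42.2 in priSG-B and at most 7.25 elsewhere.

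Outside priSG-B, no difference in Gm47551 between successive ages passed the threshold of adjusted p = 0.05. In limma on log2(FPKM + 1), fitted over 4117 loci and all 18 libraries, plpSC minus priSG-A was -2.67 ± 2.44 (SE; adjusted p = 1). For pacSC minus plpSC the difference was 5.0 ± 2.44 (adjusted p = 0.305 in limma), and pacSC was above the plpSC library of the same number in 3 of 3. For rST minus pacSC it was -4.89 ± 2.44 (adjusted p = 0.537 in limma), and for elST minus rST it was 1.75 ± 2.44 (adjusted p = 0.928 in limma). Compared by number, plpSC was also below priSG-A in 3 of 3. The rST value was below that of pacSC in replicates 1 and 2 but above it in replicate 3. The elST value was above that of rST in replicates 1 and 3, and both were 0 in replicate 2. Whether the numbers pair the libraries is not known. These 4 comparisons called 0% of the tested loci each. An unadjusted p under 0.05 was reached by 8, 650, 372 and 78 loci in limma, and limma run without its trend and robust options called 0 as well. The 8 and the 78 are fewer than a share of 0.05 of the 4117 loci, which is expected where no locus differs. The lack of calls therefore does not show that levels were equal. The exact permutation test, two-sided over 3 libraries against 3, gave p = 0.3, 0.2, 0.3 and 0.6 for Gm47551 in the same order, and it cannot go below 0.1.

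The 3 comparisons that include a long-fragment library changed most between fits. With the fragment-length set as a term, pacSC minus plpSC became 0.79 and rST minus pacSC became -0.68, while elST minus rST turned to -0.36. Without elST replicate 3, which has long fragments, elST minus rST was -0.46, and without rST replicate 2, which is at 0, it was -0.17. Without the 5 libraries that stand apart from their type, rST minus pacSC was -8.10 (adjusted p = 0.0268 in limma), in a fit where 58.3% of the tested loci were called; the 2 pacSC libraries left were both long-fragment ones and the 2 rST libraries were not. The other 3 differences without these libraries were -1.26 for plpSC minus priSG-A, 5.14 for pacSC minus plpSC and 2.36 for elST minus rST (adjusted p = 1, 0.114 and 0.524 in limma).

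Copies of the Gm47551 sequence are widespread among annotated transcripts. Of 55450 M21 genes, 1948 held an alignment of at least 140 of its bases, 104 of them at 95% identity or more, 457 at 90 to 95% and 1387 below 90%. The highest identity of any was 98.0%, and 1376 of the genes are protein coding. Among the tested loci with an M21 length, leaving out Gm47551, 222 of 4102 held such a copy.

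Loci with a copy had higher median differences in priSG-B, the highest where the copy was closest. The median difference between priSG-B and the 15 other libraries, on the log2(FPKM + 1) scale, was 2.07 for the 21 loci at 95% or more, 0.53 for the 61 at 90 to 95%, 0.07 for the 140 below 90% and -0.62 for the 3880 with no copy. Over all 4102 loci the median was -0.58. Of the 21 loci, 16 (76.2%) had every priSG-B library above all 15 others, against 5.92% of all the loci tested. The shares were 32.8% at 90 to 95%, 9.29% below 90% and 5% with no copy.

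The filter on low values can favour such loci, and 6 of the 21 reached 1 FPKM in 3 libraries only through priSG-B. With the filter set on the 15 other libraries alone, the medians were 2.43 for 15 loci, 0.33 for 49, 0.05 for 133 and -0.64 for 3783, and 10 of the 15 loci (66.7%) did not overlap, against 4.27% of all 3980. Set against only the other long-fragment libraries (pacSC replicates 1 and 2, elST replicate 3), the medians over all 4102 loci were 1.58, 0.51, 0.10 and -0.89 in the same order, and in 18 of the 21 loci (85.7%) every priSG-B library lay above those 3, against 24.5% of all. Leaving out the 5 libraries that stand apart from their type gave 2.01 for the closest class. Against priSG-A alone, the 4 medians were 1.96, 0.30, -0.07 and -0.22. The median spliced length was 2331 nt in the closest class and 1045 nt with no copy. The difference of the other long-fragment libraries from the short-fragment ones was 0.49 in the closest class and 0.32 with no copy, and the part of fragment length in the result was not tested. These are descriptions: the contrast is the one for which Gm47551 was chosen, and loci that share a sequence are not independent.

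**Figure D4:**
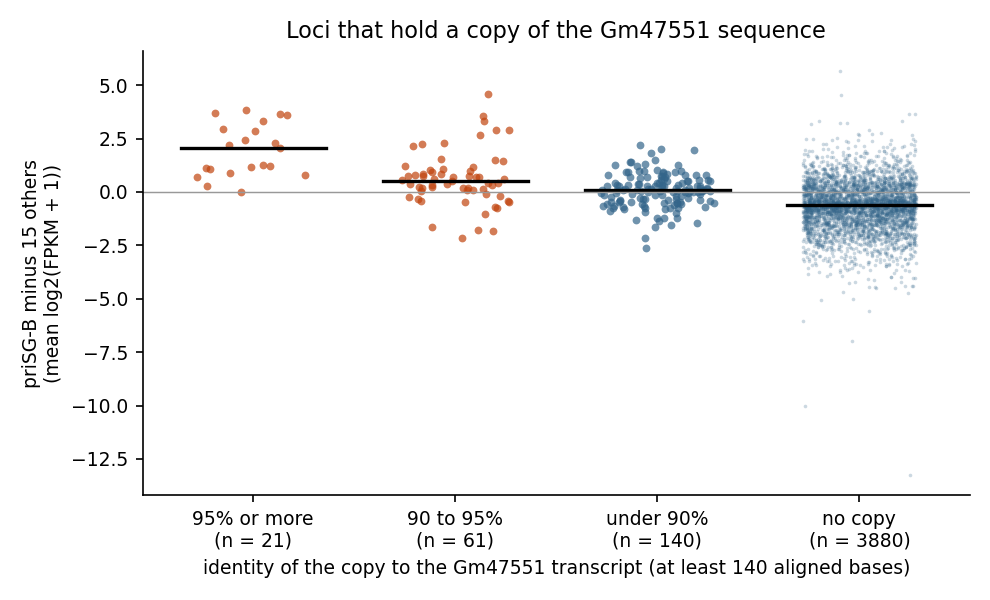
Difference between the mean of the 3 priSG-B libraries and that of the 15 others, in log2(FPKM + 1), for each of 4102 tested loci, by the identity of the copy of the Gm47551 sequence it holds. Points are loci and bars medians, which were 2.07, 0.53, 0.07 and -0.62 from the closest copies to none.

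Ftx, a long noncoding RNA of the X-inactivation centre, holds a copy at 97.0% identity in the same direction as Gm47551. It had 37.6, 34.0 and 42.7 FPKM in priSG-B, against 5.15, 5.80 and 1.98 in priSG-A and 5.26, 5.43 and 1.66 in pacSC, and at most 5.01 in the remaining libraries. Zfas1, a small nucleolar RNA host gene with a copy at 96.3%, had 64.0, 59.8 and 70.4 FPKM in priSG-B, against 20.8, 33.8 and 12.9 in priSG-A and at most 43.2 elsewhere. Both had priSG-B libraries above every other. Not every close copy went with such a level. Gm43980, with the closest copy among the tested loci (98.0%), had 11.4, 11.6 and 9.35 FPKM in priSG-B and 10.4, 8.85 and 2.13 in pacSC, and Gm17029 (95.8%) had 2.28, 2.27 and 2.15 in priSG-B and 2.21, 2.47 and 2.18 in priSG-A. At 95% or more, the 8 loci with the copy in the direction of Gm47551 had a median difference of 3.13, and the 13 with the opposite direction one of 1.27, but at 90 to 95% the medians were 0.38 and 0.74. Ftx, Zfas1, Gm43980 and Gm17029 were picked for description after their values were seen.

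The same sequence was frequent among the loci that limma called around priSG-B. Of the 27 loci (0.656% of those tested) that rose in priSG-B relative to priSG-A, 16 (59.3%) held a copy, against 222 of the 4117 loci tested (5.39%). Of the 51 loci (1.24%) that fell in plpSC relative to priSG-B, 25 (49.0%) held one. Among the 3996 loci that passed the filter on the 15 other libraries alone, 14 (0.35%) rose in priSG-B and 25 (0.626%) fell in plpSC, of which 10 (71.4%) and 16 (64.0%) held a copy, against 4.95% of those loci. These comparisons share the priSG-B libraries and are the contrast on which Gm47551 was selected, so the shares are descriptions. In both of them cell type and fragment length cannot be told apart. Gm47551 was in neither list, and no p-value is given for it in these contrasts.

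Neighbouring loci did not share its level in FPKM. The 8 named below are 570 to 2800 nt long, and a fragment has a higher worth in the much shorter Gm47551. The gap in FPKM is therefore not one in fragments, which were not compared. The table holds 13 loci within 500 kb, of which the 8 nearest were examined. D130062J10Rik, which contains exon 1 and the unspliced copy, had 1.42, 1.24 and 1.32 FPKM in priSG-B, against 0.0182 to 0.854 FPKM in the other 15 libraries, so the groups did not overlap; it holds the copy shown above and passed the filter through priSG-B alone. Gm47550, the other table locus inside Fcho2, had 1.24, 1.29 and 1.23 FPKM in priSG-B, against 4.34, 2.17 and 1.04 in priSG-A and 5.30, 2.70 and 0.0466 in plpSC, and the groups overlapped. The other 6 (Gm9465, Gm35215, Gm48050, Gm35279, A930014D07Rik and 2310020H05Rik) stayed at or below 1.47 FPKM in every library, and A930014D07Rik is listed at 0 in all 18. The coding gene Fcho2 is not among the loci analysed here, so the antisense transcript could not be set beside it.

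The next loci in order of mean priSG-B level were Gm10076, Gm26917 and Gm28967, with 3638, 2614 and 2294 FPKM. Each was also high elsewhere: Gm10076 reached 4079 FPKM in rST replicate 2, Gm26917 2903 FPKM in rST replicate 1 and Gm28967 4168 FPKM in plpSC replicate 1. For all 3, the priSG-B libraries overlapped other types, unlike those of Gm47551.

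The loci whose pattern was most like that of Gm47551 were found by Pearson's r on log2(FPKM + 1) over the 18 libraries, among 4116 other loci. They were Gm48610 (0.94), Gm45184 (0.93), Gm7762, Gm40977, Gm43461, Gm12953 and Gm10642 (0.92 each) and Prkag2os2 (0.91). The median r of all loci was -0.23, and 10 loci reached 0.9. Of these 8, 4 held a copy of the Gm47551 sequence (Gm48610, Gm45184, Gm43461 and Gm12953), against 5.39% of the loci compared. Gm48610 had 152, 149 and 178 FPKM in priSG-B, against 3.26, 11.1 and 3.85 in priSG-A. In pacSC it had 29.9, 33.5 and 2.80 FPKM, with the 2 long-fragment libraries high, as for Gm47551. All 18 values of each locus share library depth and fragment length, so these coefficients describe the libraries and carry no p.

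Without priSG-B, over the 15 other libraries, the most similar loci were Gm13075 (0.91), Gm48610 (0.90), Gm45184 (0.89), Gm15541 (0.88) and Gm43461 (0.88), where the median of all loci was -0.01. All 5 held a copy, at 93.9 to 95.8% identity, and 3 of them were also among the 8 above. The filter on low values still used all 18 libraries, however. Gm15541 passed it through priSG-B alone, and its r over the 15 others rests on values of at most 0.736 FPKM. Gm13075 had 20.8, 17.9 and 22.6 FPKM in priSG-B and 2.19, 2.74 and 0.167 in pacSC, where again the 2 long-fragment libraries were high. The 15 values include 3 long-fragment libraries, and the part of fragment length in these coefficients was not tested.

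**Figure D5:**
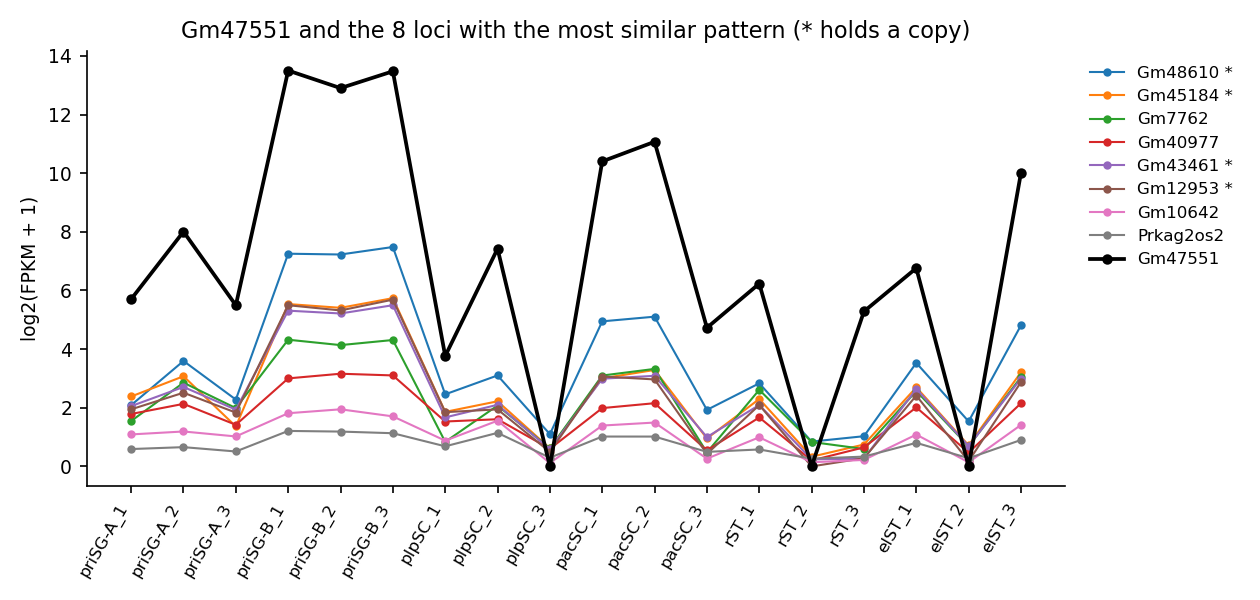
Levels as log2(FPKM + 1) of Gm47551 (black) and the 8 loci with the highest Pearson r to it over 18 libraries, by library in order of age; lines only join the values of a locus. All are highest in a priSG-B library, and the loci marked * hold a copy of the Gm47551 sequence. Smaller peaks in pacSC replicates 1 and 2 and elST replicate 3 are not shared by all. Outside priSG-B, Gm10642 and Prkag2os2 were highest in plpSC replicate 2 (1.94 and 1.21 FPKM). Gm40977 was higher in priSG-A replicate 2 (3.39 FPKM) than in pacSC replicate 1 (2.97 FPKM).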

How the data were processed

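The authors deposited 1 table of FPKM for 13218 loci in 18 libraries; 0 columns were unmapped. HISAT2, StringTie and mm10 are named, with no version, per the submitters' processing notes. The annotation, the treatment of fragments that map to several places and the counting of strand are not stated in the sources. Although the series' design text mentions duplicates, 3 numbered libraries of each type were given and used. Whether these came from separate animals is not recorded, so p-values measure the spread between libraries, which may be technical.

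Identifiers were matched to GENCODE M21 without regard to version (13191 loci; 13111 with the same version). The 4117 loci that reached 1 FPKM in 3 or more libraries were tested on log2(FPKM + 1), a scale that understates the change of low loci, with limma 3.58.1 in R 4.3.3 (trend, robust; 1 coefficient per type, two-sided, Benjamini-Hochberg threshold 0.05).

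Depth and fragment length were inferred from single-exon loci of 500 to 4000 nt, as the pair that best made low values whole numbers of fragments. With that pair 98.0 to 99.3% of low values were whole within a tolerance of 0.02 for each fragment. This share measures the fit and is not a separate check. The depth of the library itself is not in the table. The 2 sets of libraries were divided by AY036118 at 100 FPKM, which gives the same split as fragment length.

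The transcript was aligned to the M21 transcripts with blastn 2.17.0 (word size 11, e-value at most 1e-10), and the identity is that of the best alignment of at least 140 bases; M21 sequences come from GENCODE, and a locus was counted by its longest matching transcript only for motifs. Python 3.11.15, numpy 2.4.6, pandas 2.3.3 and matplotlib 3.10.9 were used.

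Gm47551 and all lists were chosen with earlier results of these data known. Named loci were taken by rule: the 8 with the highest r over 18 libraries and the 5 over 15, up to 8 within 500 kb, those inside Fcho2, the neighbours in rank, AY036118 and Gm42418. The main fit did not pair libraries by number, and a fit with the replicate number as a block was an alternative in every tested comparison. As a description, deviations from the type mean were correlated between same-numbered libraries of the types compared. The correlations were 0.65 to 0.73 for plpSC and priSG-A and 0.31 to 0.35 for pacSC and plpSC. They were 0.13 to 0.85 for elST and rST, but -0.32 to 0.62 for rST and pacSC. Nothing in the labels says that the numbers pair the libraries. Only same-numbered libraries were correlated, and several libraries that differ from their type share a number. These correlations therefore cannot show whether the numbers pair the libraries.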

Additional observations from a re-analysis of the deposited data

How the results depend on the processing

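Of 68 alternatives over the 4 tested comparisons, 64 kept the direction and the side of the threshold. This count is no measure of support. The exact permutation tests could not pass the threshold, and settings such as other filters or the replicate block leave the difference unchanged by design. The 64 also include the fits with the fragment-length set as a term, where pacSC minus plpSC fell to 0.79 and rST minus pacSC went to -0.68. The elST minus rST difference reversed to -0.36 with the fragment-length set as a term, and, over leave-one-out fits, ranged from -0.46 to 4.55. The other leave-one-out ranges were -4.52 to -0.81 for plpSC minus priSG-A, 3.14 to 7.01 for pacSC minus plpSC and -6.90 to -2.97 for rST minus pacSC. Without 5 libraries, an alternative chosen after seeing the data, rST minus pacSC passed the threshold at -8.10, and limma then called 0, 2932, 2401 and 1718 loci in the 4 comparisons, against 0 in each with all 18 libraries; the cause was not tested. Over all alternatives adjusted p in limma ran from 0.800 to 1, 0.114 to 0.830, 0.0268 to 1 and 0.517 to 1. With the replicate block (the paired fit) the differences were again -2.67, 5.0, -4.89 and 1.75 and adjusted p in limma was 0.999, 0.191, 0.440 and 0.840, so it changed no call. The lowest priSG-B library over the highest other was 3.56. It was 14.1 as a share of the summed FPKM and 3.56 to 5.29 without 1 priSG-B library. After quantile normalization it was 16.5, but each priSG-B library then takes the same top value of 25140 FPKM. That value is set by the rank of Gm47551 there and not by its level. As a ratio to Gm43940, in libraries where Gm43940 was above 0, it was 1.82, an alternative added after seeing the data. The highest r, 0.94, was 0.90 with a pseudocount of 0.1 and 0.97 over the 6 type means, and between 2 and 6 of the 8 most similar loci were shared with each alternative. The median of 2.07 for loci with a close copy was 1.58 against long-fragment libraries only, 2.96 with a pseudocount of 0.1, 2.86 with a filter of 5 FPKM, 2.43 with the filter on the 15 others, 2.85 after quantile normalization and 1.27 with alignments of at least 100 bases, all added after seeing the data. Quantile normalization moved the median of all loci to -0.11. The number of fragments behind each level is known only as a lower bound.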
